A study of Mus musculus with 89 samples.

Results

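Oxidative phosphorylation is carried by 5 protein complexes of the inner mitochondrial membrane, and most of their subunits are encoded in the nucleus. The nuclear genes were taken from the deposited table by name: complex I genes beginning with Nduf and a subunit letter and number, Sdha to Sdhd of complex II, genes beginning with Uqcr of complex III, Cox4 to Cox8 genes of complex IV, and genes beginning with Atp5 of complex V, without pseudogenes marked -ps. This gave 84 of the 24411 genes in the table: 37 of complex I, 4 of complex II, 8 of complex III, 18 of complex IV and 17 of complex V. Genes of the mitochondrial genome were not part of the list, and 0 of the table's genes carried the prefix mt-. The names fit the complexes with known exceptions: Ndufa4 is today counted as a subunit of complex IV, Cox7a2l is an assembly factor of respiratory supercomplexes, and Atp5s and Atp5sl are not subunits of the ATP synthase.

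The study measured RNA in 89 single cells of the mouse dentate gyrus, the part of the hippocampus where new neurons are made in adult life. All mice were homozygous for Nestin:CFPnuc (B6.Cg-Tg(Nes-CFP)1Enik/J, in a C57BL/6 background), in which the nestin promoter drives a cyan fluorescent protein in the nucleus, and all groups share this transgene. Dentate gyri were dissociated, single viable cells were sorted by flow cytometry, and full-length cDNA was made from each cell with SMART-Seq v4. Mice were 2 months old (48 cells) or 4.5 months old (41 cells). The deposited group table put 60 cells in a quiescent neural stem cell class (qNSC; 32 at 2 months and 28 at 4.5 months), 18 in an activated neural stem cell class (aNSC; 11 and 7) and 11 in an intermediate progenitor class (IPC; 5 and 6). It also gave the qNSC 3 colours: 26 red cells (13 and 13), 25 green cells (15 and 10) and 9 blue cells (4 and 5). The sources used here give neither the meaning of the colours nor the way classes and colours were drawn, so they may rest on the same expression values. No animal is named, so each group counts as 1 sample: values are given as sizes with their spread over cells, no test was possible, and all intervals cover counting error only.

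Electrons from NADH enter the chain at complex I and those from succinate at complex II, pass through complex III to complex IV, which hands them to oxygen, and the proton gradient built on the way drives complex V, the ATP synthase. Complex I, III, IV and V contain subunits from both genomes, whereas complex II is wholly nuclear. Each complex has a catalytic core and many accessory subunits, some of which exist as paralogs with tissue-specific use. In the adult neurogenic niche, quiescent stem cells are known for glycolysis and fatty acid oxidation, and the move towards neurons is known for a growing use of oxidative phosphorylation.

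The markers of IPC followed the labels, whereas the share of quiescence and cycling markers read told aNSC from qNSC in few cells. Cells with markers of other types bear on every comparison with the aNSC class. At least 50% of 8 quiescence markers were read in all 60 qNSC, in 17 of the 18 aNSC and in 7 of the 11 IPC, and IPC markers in 10 of 11 IPC and in 0 cells of the other classes. Cycling markers reached that share in 3 of 18 aNSC and 5 of 11 IPC. The 6 astrocyte markers reached it in 50 of 60 qNSC (24 of 32 at 2 months, 26 of 28 at 4.5 months), in 4 of 18 aNSC and in 0 of 11 IPC, so these markers did not tell qNSC from astrocytes, and their part in the comparisons with qNSC was not tested. In 7 of 18 aNSC, and in no other cell, Pdgfra, a receptor of oligodendrocyte precursors, was read at least 10 times; the same 7 cells carried Sox10, Olig1, Olig2, Neu4, Lhfpl3 and C1ql1 in 7 of 7, Cspg4 in 5 of 7, and Hopx and Gfap in 0 of 7. One further aNSC at 2 months and 4 qNSC at 4.5 months (2 green, 1 red and 1 blue) carried markers of vessel cells, neurons or oligodendrocytes, which makes 12 cells in all. Results are given with and without these cells where they matter. The summed counts of a cell were between 234608 and 1896070 (median 912394). No 2 cells were identical, and the highest correlation between 2 cells was 0.614. Age and sex cannot be told apart: Y-linked genes reached 10 reads in 38 of the 48 younger cells and 0 of the 41 older ones, and Xist or Tsix in 0 and 37 of them.

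The 3 genes Atp5g1, Atp5g2 and Atp5g3 encode the same mature protein, the c subunit that forms the rotating ring of the ATP synthase, and differ in their import sequences and their promoters. Their levels stood differently between the classes, so their promoters are shown with that of Sdhd, a membrane anchor of complex II and the only other member past the size rule in aNSC at both ages. These 4 were chosen after their values were seen. Each is the 150 bases before the transcription start, from the RefSeq promoter table for GRCm38.p6, read 5′ to 3′ on the minus strand. Capitals mark the motif of NRF1, a transcription factor of many respiratory genes (GCGC, any base, TGCGC), and the ETS motif bound by GABPA (CCGGAAG). Both strands were searched, and a motif on the other strand appears as its reverse complement.
Atp5g1, chr11:96075632-96075781: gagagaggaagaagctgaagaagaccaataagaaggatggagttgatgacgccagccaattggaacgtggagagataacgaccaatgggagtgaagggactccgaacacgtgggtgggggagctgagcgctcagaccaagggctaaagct
Atp5g2, chr15:102671048-102671197: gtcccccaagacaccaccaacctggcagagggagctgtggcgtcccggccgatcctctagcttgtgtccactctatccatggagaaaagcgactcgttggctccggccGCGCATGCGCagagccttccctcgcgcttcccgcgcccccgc
Atp5g3, chr2:73911327-73911476: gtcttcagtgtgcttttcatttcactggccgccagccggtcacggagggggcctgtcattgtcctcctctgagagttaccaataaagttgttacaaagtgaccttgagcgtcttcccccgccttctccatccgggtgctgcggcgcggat
Sdhd, chr9:50603850-50603999: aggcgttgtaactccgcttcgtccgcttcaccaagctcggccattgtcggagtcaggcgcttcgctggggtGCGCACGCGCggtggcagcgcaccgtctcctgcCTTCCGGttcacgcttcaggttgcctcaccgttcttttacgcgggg

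Atp5g2 held an NRF1 motif whose first shown base lies 42 bases before the start, and Sdhd held an NRF1 motif at 79 and an ETS motif at 46 bases before it. The windows of Atp5g1 and Atp5g3 held neither. Those of Cox7a2l, Cox7a1 and Ndufs8 were also searched, held neither motif and are not shown. Of the 84 members, 69 matched a gene of the table, and 250 bases before to 50 after the start were searched in each and in all 27025 genes. The NRF1 motif was present in 17 members (24.6%) against 5.19% of all genes, and in 6 of 16 complex V, 7 of 32 complex I, 2 of 3 complex II, 1 of 5 complex III and 1 of 13 complex IV members. The ETS motif was present in 16 members (23.2%) against 9.93% of all genes. The motif AAGATGGC of YY1 was present in 11 members (15.9%) against 3.19%, 7 of them in complex I and 4 in complex V. The GC box GGGCGG, at 40.6% of members and 38.2% of all genes, stood at the background. These matches describe the letters of the windows and are not sites shown to be bound.

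In TPM, a transcript level scaled for gene length and to the same total in every cell, the leading members were small accessory subunits. Ndufc2 of complex I led with a mean of 2493 TPM over the 89 cells, followed by Atp5j of complex V at 2163, Ndufa4 at 2017, Uqcr11 of complex III at 1925 and Cox8a of complex IV at 1791. The 20 leading members held 51.5% of all TPM of the list. Complex II stood lowest: its catalytic subunits Sdhb and Sdha had means of 680 and 363 TPM, and its anchors Sdhd and Sdhc of 378 and 204 TPM. Reads of 46 members were found in at least 90% of cells and of 74 in at least 50%. The 4 members read in under 10% of cells were forms of complex IV known from heart, muscle or testis: Cox6a2 and Cox8c had no read, Cox7b2 was read in 2.25% and Cox8b in 6.74% of cells. The estimated counts of Cox7c and Ndufs5 were not whole in 94.3% and 97.2% of the cells that had them, so reads shared with other genes may be split there and their values are uncertain. Exons of 28 members overlap those of another gene.

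As a share of each cell's TPM, the 84 members were close in the 3 classes. The share ran from 2.71% through a median of 5.84% to 11.07% in qNSC, from 3.19% through 6.05% to 12.15% in aNSC, and from 4.31% through 5.44% to 7.55% in IPC. The classes overlapped over nearly their whole range, and the IPC cells lay within the range of the qNSC. Without the 7 Pdgfra cells the aNSC median was 6.17%, and in those 7 it was 5.84%. As a share of counts, with no scaling for length, the medians were 2.12% in qNSC, 1.98% in aNSC and 1.97% in IPC, so the order of qNSC and aNSC depended on the unit. Over the same classes the median share of the cytosolic ribosomal proteins went from 1.64% in qNSC to 3.25% in aNSC and 5.95% in IPC, and that of the mitochondrial ribosome from 0.895% to 1.17% and 1.48%. Within the list, complex I held a median of 2.32% of TPM in qNSC, 2.45% in aNSC and 2.01% in IPC. Complex V held 1.38%, 1.49% and 1.34%, complex IV 1.24%, 1.23% and 1.04%, complex III 0.68%, 0.74% and 0.56%, and complex II 0.16%, 0.16% and 0.13%. By these medians the order of the complexes was the same in every class. With Ndufa4 and Ndufa4l2 counted in complex IV instead of complex I, complex IV held 1.372% in qNSC, 1.43% in aNSC and 1.37% in IPC, which is above complex V in IPC and below it in qNSC and aNSC.

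Among the qNSC colours, red cells had the highest share. It ran from 3.61% through 6.36% to 10.9% in red, from 2.71% through 5.13% to 10.6% in green and from 3.03% through 5.49% to 11.07% in blue cells. The medians of red and green were the same way round at both ages (6.41% and 5.13% at 2 months, 6.34% and 5.17% at 4.5 months), and the ranges overlapped. Between 2 and 4.5 months the median went from 5.94% to 5.66% in qNSC, from 6.39% to 5.11% in aNSC and from 5.27% to 5.81% in IPC. In aNSC the range was 5.53 to 9.33% at 2 months and 3.19 to 12.15% at 4.5 months, so the older cells included both the lowest and the highest share of the class.

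For the comparisons, counts were scaled to the same total in every cell (CPM), and genes counted as measured when at least 10% of cells had a read in 1 of the 2 groups or in both. Differences are those of mean log2(CPM + 1). To pass the size rule, a gene needed a difference of at least 1 and a difference of summed CPM in the same direction. The rule is one of size and is not a test.

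Most members were higher in aNSC than in qNSC, and their median difference was below that of all measured genes. Of 80 measured members 57 were higher, with a median difference of 0.33, against a median of 0.59 over all 11543 measured genes, of which 77.2% were higher. The size rule was passed upwards by 8 members, or 10% of those measured, against 32% of all genes, and downwards by 0 against 4.57%. Genes with a read were also more numerous in aNSC, with medians of 4768 and 3713.5 per cell, and members with a read had medians of 72 and 69.5. The part of this difference in detection in the results was not tested. On CPM summed over cells the median was 0.01 for the members and 0.45 for all genes. The distance to all genes depended on the filter: with every gene read in 1 cell of either group the medians were 0.290 and 0.285, and by the median over cells they were 0.0021 and 0. By complex the median difference was 0.29 in complex I (27 of 37 higher), 0.78 in complex II (4 of 4 higher), 0.20 in complex III, 0.02 in complex IV (7 of 14 higher) and 0.52 in complex V (13 of 17 higher). Complexes II and V thus stood highest and complex IV nearest to 0.

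In complex I, Ndufa1, an X-linked accessory subunit needed for assembly of the membrane arm, was higher in aNSC by 1.91, and Ndufs6, a zinc-binding accessory subunit of the peripheral arm, by 1.56. Ndufa1 ran from 0 through 401 to 2475 TPM in qNSC, from 0 through 766 to 2693 TPM in aNSC and from 0 through 503 to 1313 TPM in IPC. It was read in 44 of 60 qNSC and 17 of 18 aNSC, and the ranges overlapped. The 7 core subunits had a median difference of 0.45 with 6 higher, and Ndufv1, the NADH-binding subunit, stood at 1.00 just outside the rule. Ndufc2 was the lowest member of all at -0.93, with 8.73 ± 1.34 (SD, n = 18 cells) in aNSC and 9.65 ± 0.79 (SD, n = 60 cells) in qNSC on the log2(CPM + 1) scale. Its median was 2509 TPM in qNSC, 2133 TPM in aNSC without Pdgfra reads and 793 TPM in those with them, so the lower level was found chiefly in the Pdgfra cells.

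In complex II, the membrane anchor Sdhd was higher in aNSC by 1.83, with 8.23 ± 0.58 (SD, n = 18 cells) against 6.40 ± 3.32 (SD, n = 60 cells). Sdhd ran from 0 through 281 to 994 TPM in qNSC, from 205 through 414 to 1041 TPM in aNSC, and from 0 through 485 to 1064 TPM in IPC. Every aNSC had reads of Sdhd, against 50 of 60 qNSC (83.3%, exact Clopper-Pearson interval 71.5 to 91.7%). Summed over cells, its level was 332 CPM in aNSC (exact Poisson interval 323 to 341) and 240.1 CPM in qNSC (236 to 244). The catalytic subunits stood at 0.58 for Sdha, which holds the flavin, and 0.19 for Sdhb, which holds the iron-sulfur clusters. In complex III, Uqcrc2, one of the core proteins, passed the rule at 1.40, while its partner Uqcrc1 stood at -0.43. In complex IV the rule was passed by Cox7a1, a heart and muscle form read in 5 of 18 aNSC and 5 of 60 qNSC, and by Cox7a2l at 1.03. The remaining complex IV members spread around 0, with Cox5a at -0.30 and Cox8a at -0.43.

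**Figure D1:**
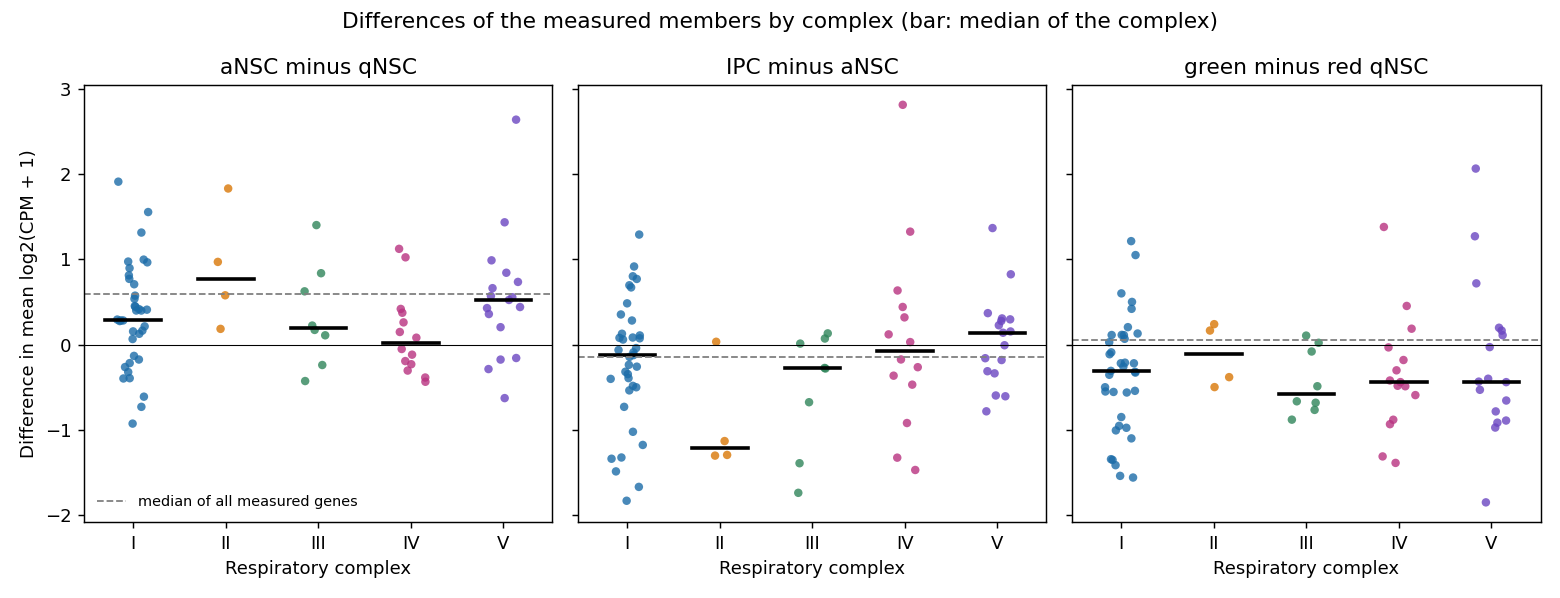
Difference in mean log2(CPM + 1) of each measured member (points) by complex I to V (x axis) in aNSC minus qNSC, IPC minus aNSC and green minus red qNSC; bars are the median of the complex and the dashed line is the median of all measured genes. In aNSC minus qNSC the median of complex II is 0.78 and that of complex IV 0.02; in green minus red qNSC 56 of 81 members lie below 0.

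In complex V, the 2 members past the size rule were genes of the c ring, Atp5g2 and Atp5g1. Atp5g2 had the largest difference of any member, 2.64, with 7.27 ± 1.24 (SD, n = 18 cells) in aNSC and 4.63 ± 3.38 (SD, n = 60 cells) in qNSC. Atp5g2 ran from 0 through 297 to 1308 TPM in qNSC, from 70.2 through 631 to 1518 TPM in aNSC, and from 0 through 590.3 to 1981 TPM in IPC. It was read in 43 of 60 qNSC (71.7%, exact Clopper-Pearson interval 58.6 to 82.5%), 18 of 18 aNSC and 10 of 11 IPC. Summed over cells, Atp5g2 was at 101 CPM in qNSC (exact Poisson interval 98.8 to 104), 202 CPM in aNSC (195 to 209) and 228 CPM in IPC (219 to 237). The cells without Atp5g2 were thus mostly qNSC, and the upper parts of the ranges overlapped. Atp5g1 was higher in aNSC by 1.44, and its levels ran from 0 through 251 to 1167 TPM in qNSC, from 20.4 through 439 to 3496 TPM in aNSC and from 110.3 through 338 to 967 TPM in IPC. Atp5g3, the most abundant of the 3 in TPM, stood at -0.29, with medians of 1399 TPM in qNSC, 1320.35 TPM in aNSC and 1235 TPM in IPC. The c ring genes did not go together: Atp5g2 and Atp5g1 were higher in aNSC and Atp5g3 was not. The catalytic subunits Atp5a1 (alpha) and Atp5b (beta) stood at 0.57 and 0.21, and Atp5l, the g subunit, at -0.63.

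**Figure D2:**
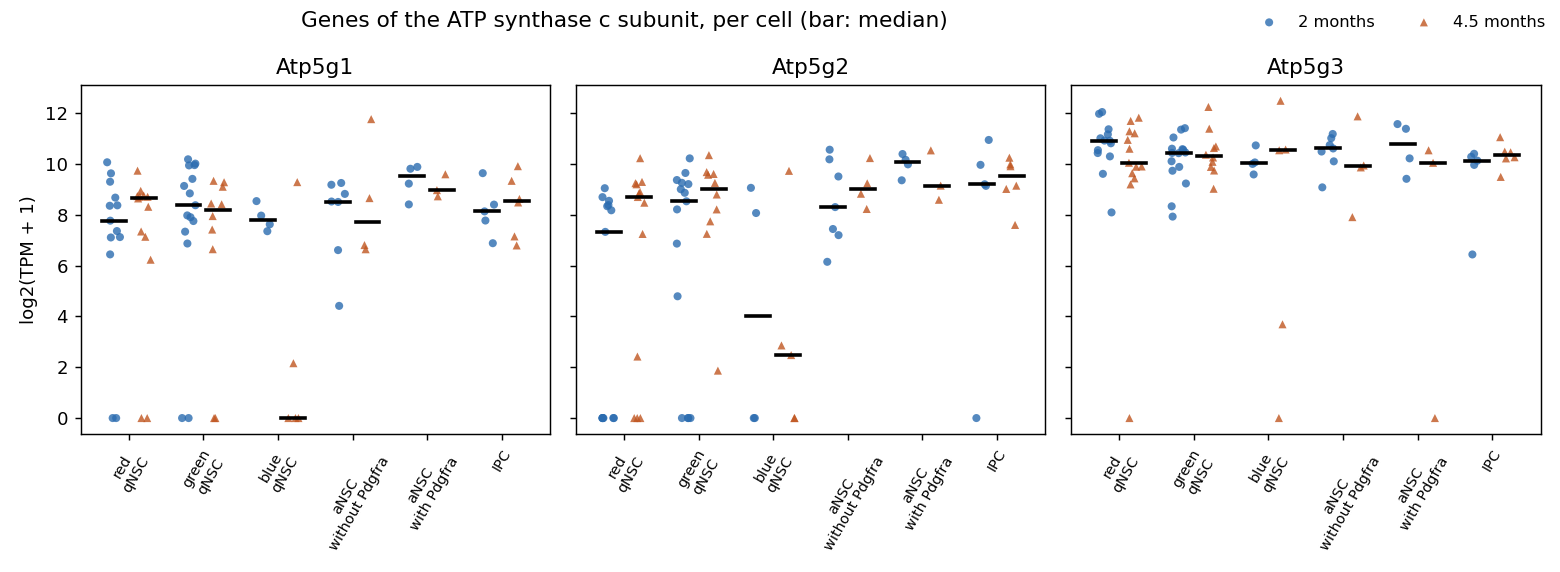
Level of the 3 genes of the ATP synthase c subunit in each cell, as log2(TPM + 1) on the y axis, for red, green and blue qNSC, aNSC without and with Pdgfra reads, and IPC (circles 2 months, triangles 4.5 months). Atp5g2 is read in 43 of 60 qNSC and 18 of 18 aNSC, whereas Atp5g3 is read in 58 of 60 and 17 of 18.

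These differences were also computed without the Pdgfra cells and within each age. Without them, 60 of 80 members were higher and the median was 0.39 (all genes 0.53), with Atp5g2 at 2.29, Ndufa1 at 2.35, Sdhd at 1.81 and Atp5g1 at 1.05. Without all 12 cells with markers of another type the median was 0.31 (all genes 0.45). At 2 months the median was 0.45 (all genes 0.67), with 16 up and 3 down against 36.1% and 6.82% of all genes. At 4.5 months it was 0.18 (all genes 0.64), with 10 up and 8 down against 35.2% and 8.87%. The complex I median was 0.78 at 2 months and -0.09 at 4.5 months. The members that passed upwards at both ages were Atp5g2 and Sdhd, 2.53% of 79 against 18.2% of all genes, and 0 passed downwards at both against 3.0%. Atp5g2 stood at 2.25 and Sdhd at 2.00 at 4.5 months.

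The further genes of the pathway stood higher in aNSC to different degrees. The mitochondrial ribosome, which translates the subunits encoded in the mitochondrion, had 30 of 77 genes past the rule upwards and 0 downwards, with a median of 0.88, from Mrpl37 at 3.29 to Mrpl34 at -0.75. Assembly factors had 19 of 46 upwards and 1 downwards, with a median of 0.78, from Uqcc1, a complex III factor, at 3.32 to Cox10, an enzyme of heme a synthesis, at -1.20. The tricarboxylic acid cycle had 4 of 14 up and 1 down (median 0.29), with Dlst highest at 2.29. Regulators had 3 of 16 up and 1 down (0.46), with Nrf1 at 2.24 and Ppargc1a, a coactivator of mitochondrial biogenesis, at -1.52. Antioxidant genes had 3 of 12 up and 2 down (0.17), with the cytosolic Sod1 at 2.29 and the mitochondrial Sod2 at -1.82. Other subunits and carriers had 6 of 21 up and 0 down (0.46), led by Atpif1, the inhibitor of the ATP synthase, at 2.50 (18 of 18 aNSC and 45 of 60 qNSC), with the ADP/ATP carrier Slc25a4 lowest at -0.51. The ribosome and assembly lists stood above the all-gene median of 0.59 and the subunits of the complexes below it. The upward shares of these 2 lists lay above that of all genes, and those of the other further lists below it.

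Between aNSC and IPC the members stood close to genes as a whole. Of 80 measured members 35 were higher, with a median of -0.13 against -0.14 over 11633 genes. The rule was passed upwards by 4 members, or 5% of them, against 21.7% of all genes, and downwards by 12, or 15%, against 22.7%. The medians were -0.12 in complex I, -1.21 in complex II, -0.28 in complex III, -0.07 in complex IV and 0.14 in complex V. Cox7a2l, the supercomplex factor, had the largest difference upwards at 2.81. It was read in 11 of 18 aNSC and 10 of 11 IPC, at 0 through 50.2 to 634 TPM and 0 through 205 to 705 TPM, and summed at 99.6 CPM (exact Poisson interval 94.8 to 105) and 193 CPM (185 to 202). The ranges of Cox7a2l overlapped, and without the Pdgfra cells the difference was 3.49. The other members upwards were Atp5sl at 1.37, Cox5a at 1.33 and Ndufv2, a core subunit that carries an iron-sulfur cluster, at 1.29.

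Downwards in IPC were 2 of the 4 complex II subunits, Sdhc at -1.30 and Sdha at -1.13, while Sdhd at -1.29 did not pass because its summed CPM was higher in IPC (ratio 1.12). In complex I, Ndufs7 and Ndufs8, core subunits that carry iron-sulfur clusters, stood at -1.83 and -1.34, with Ndufa1 at -1.67 and Ndufa8 at -1.49. Ndufs7 ran from 144 through 671 to 1067 TPM in aNSC and from 0 through 351 to 686 TPM in IPC, with reads in 18 of 18 and 9 of 11 cells, and the ranges overlapped. In complex III, Uqcr10 stood at -1.74 and Uqcrfs1, the Rieske iron-sulfur protein, at -1.39. In complex IV, Cox4i1 stood at -1.33, with medians of 1616 TPM in aNSC and 1147 TPM in IPC. Cox7a1 had reads in 5 of 18 aNSC and 0 of 11 IPC, where its summed CPM was at least 31.6-fold lower when IPC is set to the floor of 3 counts over the group. The direction of the whole list depended on age: the median was -0.43 at 2 months (3 up, 21 down of 79; all genes 28.5% and 25.4%) and 0.16 at 4.5 months (19 up, 9 down of 81; all genes 24.4% and 29%), against medians of 0.16 and -0.18 over all genes. Cox7a2l passed upwards at both ages (1 of 79 members; 12.3% of all genes), and Cox7a1 and Ndufs8 downwards (2.53%; 12.2% of all genes). Without the Pdgfra cells the median was -0.26 (all genes 0.10), and without all cells with markers of another type it was -0.16 (all genes -0.07).

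In the further lists, 19 mitochondrial ribosome genes were past the rule upwards in IPC and 12 downwards of 77 (median 0.44), from Mrpl57 at 2.68 to Mrpl48 at -3.49. Over all genes, 21.7% passed upwards and 22.7% downwards, so the upward share of this list is near the background. Assembly factors had 8 up and 11 down, with the complex III chaperone Bcs1l at 2.39 and the complex IV factor Surf1 at -2.54. The tricarboxylic acid cycle had 3 up and 6 down, with Ogdh at 2.10 and Suclg2, which was read in 0 of 11 IPC, at -3.58. Antioxidant genes had 2 up and 5 down, with Sod2 at 2.01 and Prdx6 at -3.79. Other subunits and carriers had 3 up and 2 down, with Pdss1 of coenzyme Q synthesis at 2.00 and Etfdh at -1.52, and regulators 4 up and 3 down, with Sirt1 at 2.17 and Tfb2m at -1.64.

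Green qNSC had lower levels of most members than red qNSC, while the median of all genes was near 0. Of 81 measured members 56 were lower and 25 higher in green, with a median of -0.38 against 0.05 over 10160 genes. Downwards 10 members passed the rule, or 12.3%, against 9.58% of all genes, and upwards 5, or 6.17%, against 11.9%. The medians were -0.31 in complex I, -0.11 in complex II, -0.58 in complex III, -0.44 in complex IV (12 of 15 lower) and -0.43 in complex V. Total counts and genes with a read had medians of 1004300 and 3840 in green and 974499 and 3722 in red cells, and members with a read of 68 and 70.5. Astrocyte markers went with the same contrast: the median cell had 66.7% of the 6 markers in green and 91.7% in red. S100b reached 10 reads in 6 of 25 green and 20 of 26 red cells, Aldh1l1 in 8 and 15, Gjb6 in 18 and 25, Aqp4 in 18 and 23, Fgfr3 in 20 and 20, and Gja1 in all of them. The part of these markers and of detection in the result was not tested.

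The lower members lay in several complexes. Atp5f1, the b subunit of the stator stalk, stood at -1.85 (reads in 19 of 25 green and 25 of 26 red cells), the accessory subunits Ndufa6 and Ndufb6 at -1.56 and -1.54, and the core subunit Ndufs8 at -1.41. Cox7b, an X-linked subunit of complex IV, stood at -1.39. It ran from 0 through 321 to 971 TPM in green and from 122 through 394 to 1021 TPM in red cells, and summed to 161 CPM (exact Poisson interval 156 to 166) and 267 CPM (260.3 to 273). The lowest cells of Cox7b were green, and above them the ranges overlapped. Atp5b, the catalytic beta subunit, was read in all of these cells and stood at -0.43, with 10.46 ± 0.73 (SD, n = 25 cells) in green and 10.89 ± 0.47 (SD, n = 26 cells) in red. Its level ran from 377 through 1262 to 3070 TPM in green and from 627 through 1682 to 2805 TPM in red cells. The difference in Atp5b was smaller than its spread over cells. Against this direction, Atp5s stood at 2.07, Cox7a2l at 1.38, Atp5g2 at 1.27, Ndufv3 at 1.22 and Ndufs4 at 1.05 in green. Atp5g2 ran from 0 through 446 to 1308 TPM in green and from 0 through 307 to 1204 TPM in red cells.

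The lower level in green was found at both ages, with a median of -0.65 at 2 months (5 up, 21 down; all genes 0.04, with 16.4% up and 15.4% down) and -0.20 at 4.5 months (5 up, 8 down; all genes 0.13, with 17.6% and 13.5%). In both ages 35 of 79 members were lower and 9 were higher, against 2279 and 2767 of 9310 genes. Across the 79 members the r between the ages was 0.18. Cox7b was among the 2 members that passed downwards at both ages (2.53%; all genes 4.03%), and Atp5g2 and Atp5s passed upwards (2.53%; all genes 4.75%). Without the cells with markers of another type the median was -0.34 (all genes 0.07). The further lists had no common direction in green: the mitochondrial ribosome had 11 up and 8 down (median 0.13, from Mrps24 at 1.84 to Mrpl13 at -1.93), assembly factors 7 up and 10 down (Coa3 at 1.91, Surf1 at -2.23), the tricarboxylic acid cycle 1 up and 4 down (Ogdh at 1.27, Mdh2 at -1.67) and other subunits and carriers 1 up and 4 down (Coq2 at 2.03, Coq9 at -3.28). Regulators had 2 up and 2 down, with Tfb2m at 1.56 and Hif1a at -1.18, and antioxidant genes 2 up and 1 down, with Txnrd2 at 1.66 and Sod2 at -1.11. Over all genes, 11.9% passed upwards and 9.58% downwards.

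In the 9 blue qNSC, members were lower than in the 51 other qNSC by more than genes as a whole, on mean log2 values over both ages. On summed CPM, and within 2 months (-0.17 against -0.29 over all genes), they were lower by less than genes as a whole. Of 80 measured members 18 were higher, the median was -1.02 against -0.30 over 11222 genes, 33 members (41.3%) passed the rule downwards against 23.4% of all genes, and 3 (3.75%) upwards against 5.45%. Blue cells had fewer reads and genes, with medians of 793971 total counts and 3405 genes, and 62 members with a read against 68 in green and 70.5 in red cells. On CPM summed over the cells the median of the members was -0.02, against -0.46 over all genes. Without the cells with markers of another type the median of the means was -0.93 (all genes -0.31). With cells thinned to 400000 reads, which left 7 of the 9 blue cells, the median was -0.59 (all genes -0.27). With median-of-ratios scaling it was -0.57 (all genes -0.19). Beyond these runs, the part of depth in the values was not tested.

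By complex, the medians in blue were -0.77 in complex I, -1.79 in complex II, -1.45 in complex III, -0.49 in complex IV and -1.46 in complex V. Of the 7 core subunits of complex I, 0 were higher and 6 passed the rule downwards, with a median of -1.76, while the accessory subunits had a median of -0.52. Ndufb3, an accessory subunit, stood at -3.63 with reads in 4 of 9 blue and 45 of 51 other cells. Its median was 0 TPM in blue, 671 TPM in green and 781 TPM in red cells. Sdhd stood at -3.16 (5 of 9 and 45 of 51 cells) and Uqcrc2 at -2.93. Atp5a1, the alpha subunit, was read in 9 of 9 and 51 of 51 cells and stood at -2.50. It ran from 6.21 through 201 to 509 TPM in blue, from 2.20 through 637 to 1283 TPM in green and from 122 through 792 to 1604 TPM in red cells, and its summed level was 541 CPM in blue (exact Poisson interval 523 to 559) against 1038 and 1250.2 CPM. The blue cells lay in the lower part of the range of the other colours. Ndufc2 stood apart in the other direction at 1.09, with 2525 through 4332 to 10541 TPM in blue, 999.8 through 2286 to 3766 TPM in green and 808 through 2411 to 5425 TPM in red cells. Uqcr11 at 1.08 and Ndufb6 at 1.07 also passed upwards.

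The size of the blue difference, and its place against that of all genes, depended on age. At 2 months (4 cells) the median was -0.17 with 11 up and 24 down, and at 4.5 months (5 cells) -1.68 with 4 up and 35 down. Over all genes the medians were -0.29 and -0.59, with 16.5% up and 25.3% down at 2 months and 9.55% and 32.8% at 4.5 months. Blue cells at 4.5 months also had the fewest reads, with medians of 442930 total counts and 3005 genes against 795080 and 3950.5 at 2 months. In both ages 13 members passed downwards (16.7% of 78 against 12.7% of all genes), among them Ndufb3, Ndufs1, Sdhd, Uqcrc1, Uqcrc2, Uqcrq and Atp5f1, and 0 upwards (1.93% of all genes). The tricarboxylic acid cycle had 0 of 14 genes higher in blue and 8 past the rule downwards, with a median of -1.46 and Mdh2 lowest at -3.41. The mitochondrial ribosome had 5 up and 31 down of 77 (Mrpl24 at -3.85), assembly factors 5 up and 16 down (Sco2 at 2.21, Cox20 at -2.93), other subunits and carriers 1 up and 8 down, and antioxidant genes 1 up and 5 down. Over all genes, with both ages together, 5.45% passed upwards and 23.4% downwards.

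Between 2 and 4.5 months, most members stood lower in qNSC on mean log2 values, near the size of the shift of all genes. Of 80 measured members 28 were higher, with a median of -0.26 against -0.13 over 10058 genes. Older qNSC had fewer reads and genes, with medians of 865575 counts and 3549.5 genes against 1051930 and 3848. With cells thinned to 400000 reads the median was -0.075 (all genes -0.11), and with median-of-ratios scaling -0.061 (all genes -0.075). On summed CPM it was 0.0056 (all genes -0.067), and by the median over cells both were 0. Beyond these runs, the part of depth was not tested. The rule was passed downwards by 10 members (12.5%) against 11.9% of all genes, and upwards by 3 (3.75%) against 4.45%, which is near the background. Ndufb3 had the largest difference at -2.0, with 4.88 ± 3.59 (SD, n = 28 cells) at 4.5 months and 6.88 ± 2.03 (SD, n = 32 cells) at 2 months and reads in 19 of 28 and 30 of 32 cells. Ndufa6 stood at -1.57, Ndufv3 at -1.26, Ndufv2 at -1.02, Sdha at -1.10, Atp5e (epsilon subunit) at -1.26, Atp5g1 at -1.14, Atp5s at -1.01 and Cox7a2l at -1.14. Cox4i2, a form of Cox4 known from the lung and from low oxygen, stood at -1.30 with reads in 1 of 28 and 10 of 32 cells. Upwards were Atp5f1 at 1.78, Ndufs3 at 1.19 and Ndufb6 at 1.18. The 3 X-linked members Ndufa1, Ndufb11 and Cox7b were all higher in qNSC at 4.5 months (median 0.75), the age with Xist reads, and had medians of -1.22 in aNSC and -0.77 in IPC. Without the 4 qNSC with markers of another type, all at 4.5 months, the median of the members was -0.24 (all genes -0.21).

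The age difference was not the same in the colours, whose median was 0.31 in green, -0.21 in red and -1.17 in blue, against 0.06, -0.10 and -0.29 over all genes. The rule was passed by 8 members upwards and 10 downwards in green (13.8% and 15.5% of all genes), 8 and 8 in red (13.0% and 18.3%), and 12 and 31 in blue (16.5% and 32.9%). This difference between colours was not tested. In both green and red, Atp5g2 (1.59 and 1.48), Ndufa9 (1.53 and 1.59) and Ndufs3 (1.20 and 3.71) passed upwards, which is 3.75% of 80 members against 2.89% of all genes. Atp5e (-1.33 and -1.43) and Ndufb3 (-1.72 and -1.89) passed downwards in both, 2.5% against 4.20%. Ndufs3, a core subunit of the peripheral arm, ran from 0 through 76.7 to 1192 TPM in red cells at 2 months, with reads in 7 of 13, and from 208 through 488 to 925 TPM at 4.5 months, with reads in 13 of 13. Among red cells, those low in Ndufs3 were thus all at 2 months, whereas in blue cells Ndufs3 was lower at 4.5 months. Across the 80 members the age differences of green and red had a Pearson r of 0.20 and a Spearman rho of 0.03, against 0.04 for r over all genes; genes are not independent replicates.

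**Figure D3:**
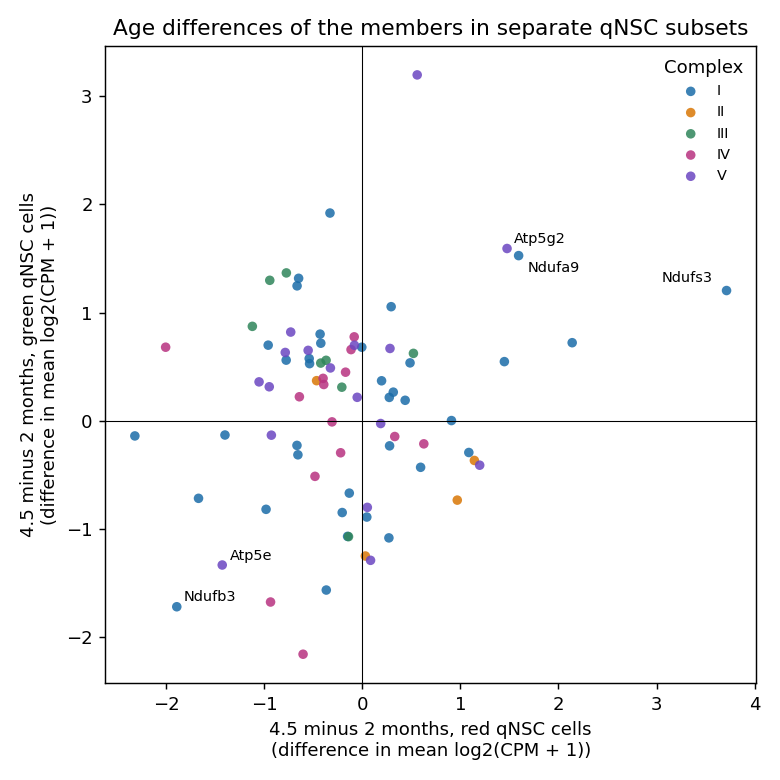
Difference between 4.5 and 2 months in mean log2(CPM + 1) of each measured member in red qNSC (x axis, 13 and 13 cells) and green qNSC (y axis, 10 and 15 cells), coloured by complex I to V. The labelled Atp5g2, Ndufa9 and Ndufs3 are higher at 4.5 months in both and Atp5e and Ndufb3 lower in both, and the cloud has an r of 0.20.

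Further genes of the pathway were also mostly within the size rule with age in qNSC. Assembly factors had 2 up and 8 down (Ndufaf7 at 1.70, Ndufaf6 at -1.51), the mitochondrial ribosome 3 up and 9 down (Mrpl40 at 1.47, Mrps6 at -2.20), the tricarboxylic acid cycle 0 up and 3 down, and other subunits and carriers 1 up (Atpif1 at 1.16) and 3 down (Coq2 lowest at -1.94). Regulators and antioxidant genes had 0 in either direction. Over all genes, 4.45% passed upwards and 11.9% downwards.

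In aNSC, members were lower at 4.5 months (7 cells) than at 2 months (11 cells). Of 81 measured members 18 were higher, the median was -0.43 against -0.05 over 11904 genes, and 21 members (25.9%) passed the rule downwards against 23.1% of all genes and 5 (6.17%) upwards against 17.5%. Complex I held 14 of the 21, and of its 7 core subunits 0 were higher and 4 passed downwards, with a median of -1.05. Ndufa10 stood at -3.73 (reads in 3 of 7 and 10 of 11 cells), Ndufs1 at -3.25 and Ndufv1 at -2.52. Cox5a, which surrounds the core of complex IV, ran from 410.01 through 781 to 1735 TPM at 2 months and from 0 through 228 to 1542 TPM at 4.5 months, a difference of -3.40. Atp5g3 stood at -1.76, Uqcrh at -1.67 and Sdhb at -1.41. Upwards were Atp5sl at 2.89 (reads in 3 of 7 and 0 of 11 cells), Cox6b2 at 1.33, Ndufa7 at 1.18, Atp5s at 1.03 and Atp5d (delta subunit) at 1.00. Without the Pdgfra cells, 4 cells at 4.5 months and 7 at 2 months gave a median of -0.49 (all genes -0.20). Cox5a then stood at -4.45, while 3 of the 7 core subunits were higher. Without all cells with markers of another type the median was -0.43 (all genes -0.10). The mitochondrial ribosome had 12 up and 28 down, and the largest differences in the other lists were Coa5 at 3.69 and Ndufaf5 at -3.13 among assembly factors and Cs at 2.21 and Suclg2 at -4.16 in the tricarboxylic acid cycle.

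In IPC, with 6 cells at 4.5 months and 5 at 2 months, members stood above genes as a whole. Of 79 measured members 47 were higher at 4.5 months and the median was 0.19 against -0.29 over 11153 genes. Upwards 16 members (20.3%) passed the rule against 18.7% of all genes, and downwards 13 (16.5%) against 31.2%. Complex II had 3 members up and 1 down, with a median of 1.60. Sdhd ran from 0 through 296 to 727 TPM at 2 months (reads in 3 of 5 cells) and from 66.4 through 543.5 to 1064 TPM at 4.5 months (6 of 6), a difference of 3.30. Sdhb ran from 127 through 334 to 382 TPM at 2 months and from 326 through 644 to 1821 TPM at 4.5 months, a difference of 1.32, and Sdha stood at 1.88, whereas Sdhc stood at -2.42. The ages overlapped for Sdhb only between 326 and 382 TPM. Also upwards were Ndufb5 at 2.32, Ndufa5 at 2.02, Uqcrc2 at 1.60, Uqcrh at 1.39, Atp5o (the oligomycin sensitivity protein) at 1.33 and Atp5k at 1.11, and downwards Ndufa1 at -3.13, Atp5l at -2.99, Ndufa9 at -2.95, Ndufb2 at -2.39 and Cox4i1 at -1.11. Genes with a read had medians of 5184 at 2 months and 3911 at 4.5 months, and the part of detection in these values was not tested. The mitochondrial ribosome went the other way with 10 up and 31 down, assembly factors had 8 up and 15 down (Cox10 at -4.99), and Gabpa, the ETS factor, led the regulators at 4.52.

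Among the paralogs of complex IV, the widely used form was read in more qNSC than the others of its family. Cox4i1 was read in 60 of 60 qNSC and Cox4i2 in 11, Cox6a1 in 60 and Cox6a2 in 0, Cox6b1 in 56 and Cox6b2 in 18, and Cox8a in 59, Cox8b in 5 and Cox8c in 0. Cox7a2 was read in 60, Cox7a2l in 27 and Cox7a1 in 5 of the 60 qNSC. Cox4i1 ran from 17.5 through 1539 to 4575 TPM in qNSC, from 483 through 1616 to 3912 TPM in aNSC and from 0 through 1147 to 1431 TPM in IPC. Ndufa4 ran from 0 through 1771 to 4386 TPM in qNSC, from 546 through 2591 to 4907 TPM in aNSC and from 922 through 2053 to 4558 TPM in IPC. Its relative Ndufa4l2, which is known to be induced by low oxygen, did not exceed 13.8 TPM in any qNSC and reached 337 TPM in 1 aNSC. Cox7a2 had medians of 255 TPM in green and 556 TPM in red cells, with 2.12 to 1779 TPM and 124 to 1390 TPM, and a difference of -0.93 that did not pass the rule.

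Across the 60 qNSC, the mean log2(CPM + 1) of the members of each complex varied together from cell to cell. Complex I went with complex IV with an r of 0.79, with complex V with 0.78 and with complex III with 0.68, complex III went with complex V with 0.75 and complex IV with complex V with 0.74. The lowest was that of complex II with IV at 0.43, where complex II rests on 4 genes. Within colours complex I and V had an r of 0.82 in green and 0.74 in red cells, and complex IV and V of 0.72 and 0.78. Other pairs were lower within green: complex III and V had 0.497, complex I and III 0.503, complex III and IV 0.46 and complex II and IV 0.11, and in red complex I and II had 0.28. The complexes had an r of 0.20 to 0.48 with the number of genes read in all qNSC, of -0.012 to 0.28 in green and of 0.33 to 0.56 in red cells. With total counts it was 0.03 to 0.25 in all qNSC. All scores of a cell share its library and scaling, and they are given as a description.

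**Figure D4:**
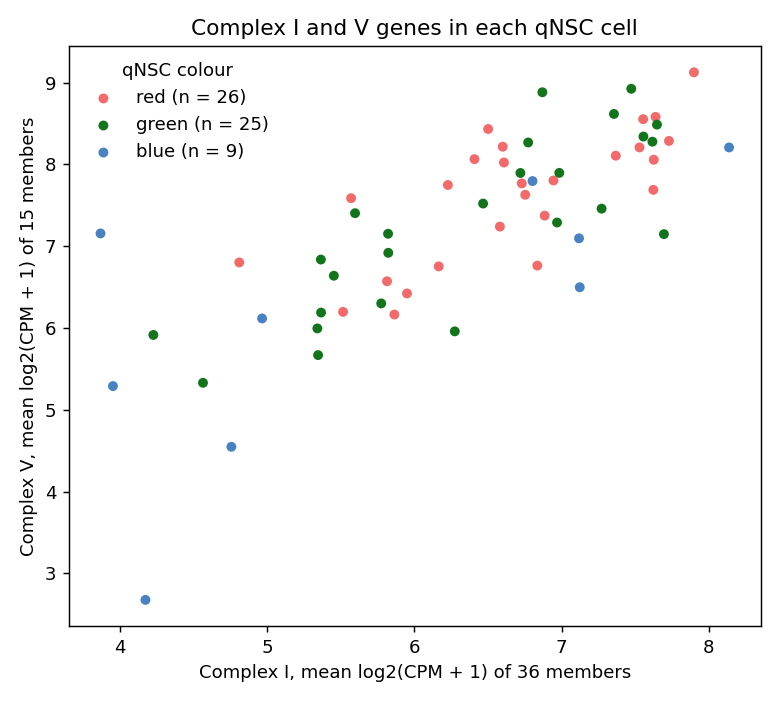
Mean log2(CPM + 1) of 36 complex I members (x axis) and 15 complex V members (y axis) in each of the 60 qNSC, coloured by the deposited qNSC colour; each point is 1 cell. The cells lie along 1 diagonal with an r of 0.78, and green and red cells overlap along it.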

How the data were processed

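The authors deposited 1 table of estimated counts and 1 of TPM for all 89 cells, and a table of cell groups; per the submitters' processing notes the tools were STAR and RSEM and the build mm10, with versions and filters not given in the sources used here. The estimated counts, as deposited by the authors, are not whole in 4.44% of values above 0 (tolerance 1e-06). They were rounded to call a read, to sum reads for the Poisson intervals and to thin cells. CPM per cell and the differences between groups used the values without rounding. The deposited TPM of the authors were used as they are. CPM used each cell's total, with a pseudocount of 1 on the log2 scale. Genes needed a read in 10% of cells of either group, and the size rule asked for a difference of 1. A cell carried markers of another type when at least 50% of a list had 10 reads. A thinned alternative drew 400000 reads per cell, leaving 81 of 89 cells. With each sample 1 cell and no animal named, no test was run. In simulated counts the median fold was recovered, but the direction of some changed genes was not. Some unchanged genes also passed the size rule, so a gene past it need not differ between the groups.

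The members and lists were chosen with earlier results of these data known. Named in each comparison were, by rule, the members of each complex with the largest and smallest difference, those past the size rule (the leading 3 where more than 5), catalytic core subunits, paralogs, and the extremes of each further list (47 assembly factors, 21 other subunits and carriers, 14 tricarboxylic acid cycle, 19 regulators, 12 antioxidant and 77 mitochondrial ribosome genes); the text gives those that carry each result and a few others chosen after their values were seen. Some values that the rule names are not reported here. Promoters came from a RefSeq table, and exon overlaps from GENCODE. Used were python 3.11.15, numpy 2.4.6, pandas 2.3.3, scipy 1.17.1 and matplotlib 3.10.9. Alternatives were TPM or another scaling, pseudocount and filter, thinning, medians over cells, summed counts, leaving out 4 members of uncertain place or count, leaving out cells with markers of another type, and each age or colour alone.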

Additional observations from a re-analysis of the deposited data

Results flagged for a closer look

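In groups of 4 to 10 cells, the gap of the highest or lowest cell to its nearest neighbour was set against the range of the group. The limit is made for about 1 of 20 groups to pass by chance, when values are normal and groups separate. Of 49 values screened, 10 passed. They share cells and sums, as the share of all members adds up the complexes and some groups hold others. The 10 are therefore not set against that rate. Among aNSC at 4.5 months, the highest cell held 12.15% of its TPM in the members, with 4.21% in complex I, 1.83% in complex III and 3.33% in complex V, each far above the other 6 cells. Among green qNSC at 4.5 months, the highest cell held 10.6% in the members and 4.10% in complex I. This cell had 450016 total counts, the lowest of the green cells. Among blue qNSC, the highest cell held 5.39% in complex I, and it had 234608 total counts, the lowest of all cells. The lowest cell had reads of 62 members among IPC at 2 months, of 56 among IPC at 4.5 months and of 49 among blue qNSC at 2 months.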

How the results depend on the processing

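The direction of the median over the members was kept under every alternative run for aNSC against qNSC (0.0021, by the median over cells, to 0.46), green against red (-0.65 to -0.16), blue against other qNSC (-1.68 to -0.021) and age in aNSC (-0.56 to -0.29). It turned for IPC against aNSC within 4.5 months (0.16), for age in qNSC in green cells (0.31) and with summed counts (0.0056), and for age in IPC with median-of-ratios scaling (-0.044); the blue value of -0.021 came from summed counts. With Ndufa4 and Ndufa4l2 counted in complex IV, its share in IPC was 1.37% (otherwise 1.04%). Counts past the size rule ranged, upwards and downwards, over 1 to 16 and 0 to 8 in aNSC against qNSC, 0 to 19 and 1 to 21 in IPC against aNSC, 1 to 5 and 0 to 21 in green against red, 1 to 11 and 8 to 35 in blue, and with age over 0 to 12 and 1 to 31 in qNSC, 1 to 7 and 7 to 25 in aNSC and 9 to 17 and 5 to 15 in IPC. The share of all genes is not set beside these ranges. Of 2717 values of single genes, 2669 moved by less than the spread over cells, 28 moved further and 20 turned. That spread is a wide limit. For Atp5g2 and Sdhd in aNSC against qNSC it was larger than the difference itself, so a gene could lose its whole difference within it. The 2669 values are thus no measure of stability. Only genes past the size rule in the main comparison could count as turned, and a change of sign in other genes was not counted. Those that turned were, in IPC against aNSC, Ndufv2 by the median over cells (-0.60), Sdhc within 2 months (0.10) and Atp5sl within 4.5 months (-0.39), and in green against red Cox6b2 within 4.5 months (0.10). In blue within 2 months they were Atp5g1 (0.53), Cox4i1 (0.29), Sdha (0.16) and Uqcrfs1 (0.71). With age in qNSC they were, by the median over cells, Atp5g1 (0.056) and Ndufv3 (0.35), in red cells Atp5g1 (0.052), Atp5s (0.085), Ndufb6 (-0.33), Ndufv2 (0.047) and Sdha (0.032), and in blue cells Cox7a2l (1.53) and Ndufs3 (-5.31). With age in aNSC they were Atp5d by the median over cells (-0.50) and Cox7a2l without cells with markers of other types (0.36), and in IPC, by the median over cells, Uqcrh (-0.17). The causes were not tested. Leaving out the Pdgfra cells and splitting by age were added after the data were seen. No paired analysis was possible because the numbers in the labels name cells and no animal or batch is given. In cells with few reads, a member without a read may still be expressed, and groups of 4 to 7 cells set the widest ranges.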
